A study of Mus musculus with 9 samples.

Results

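The baseline transcriptome of untreated RAW264.7 cells is described here from the 3 arrays labelled as controls, among 9 arrays in the series. RAW264.7 is a mouse macrophage line that was established from an ascites tumour of a male mouse carrying Abelson leukaemia virus. The control cells received no treatment and carried no hairpin RNA or decoy oligonucleotide. The other 6 arrays came from cells of the same line with a stable hairpin RNA against Nfat5 or with stable NFAT5 decoy oligonucleotides, and they enter no comparison below. The cells were grown in alpha-MEM with fetal bovine serum, penicillin and streptomycin, and total RNA was labelled for Illumina whole-genome bead arrays. The labels do not say whether the 3 control samples were separate cultures, so the spread between them may be technical. They describe 1 line under 1 culture condition and not macrophages of a tissue.

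Macrophages are phagocytes of the innate immune system. They depend on CSF-1 signalling through its receptor Csf1r, they ingest and digest particles in lysosomes, and they recognise microbes through toll-like receptors, lectins and cytosolic sensors. Resting macrophages hold many of their inflammatory genes at a low level, and these are switched on by microbial products or interferons. The lineage is set up by transcription factors of which PU.1, encoded by Spi1, is the best known.

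Each gene was read from the brightest of its probes, and the 3 values given for a gene are always its raw signals in fluorescence units on control replicates 1, 2 and 3, in that order. A signal was taken as above background when it exceeded the most frequent signal of its array by 3 SD of the signals below that point, which placed the limit at 189.6, 201.8 and 190.3 units. Signals that reached 60000 units were treated as saturated and taken to have no order among themselves. That limit was inferred from the top of the distribution of signals. Probes bind with different efficiency, so the order of genes is an order of probe signals and only loosely one of transcript number. A gene not above background may be transcribed at a level, or in a form, that its probes did not detect.

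The label of the cells was checked against its markers. All 4 label markers were above background on all 3 arrays, a state shared by 43.6% of all genes. In the wider list of macrophage identity genes described below, 22 of 30 were. Ftl1, the ferritin light chain (chr7:45457944-45459886 in GRCm38.p6), was saturated at 62330, 61084 and 61746 units. Lyz2, the lysozyme of macrophages (chr10:117277541-117282272), gave 47287, 51239 and 47552 units. Both lay among the brightest genes of the array, and 99.6% of genes had a lower signal than Lyz2. Csf1r, the CSF-1 receptor (chr18:61105572-61131139), gave 13162, 13272 and 14882 units. Tyrobp, the adaptor DAP12 of activating receptors (chr7:30413782-30417582), gave 10932, 12336 and 10019 units, higher than 96.5% of genes. The other probes of these genes did not all share the high signal. The second Csf1r probe gave 2578, 2714 and 2143 units, and the 2 further Lyz2 probes gave 19170, 19030 and 19595 units and 213, 228 and 242 units. The second Ftl1 probe was not above background on any array, at 163, 171 and 140 units. The brightest probe of Lyz1, a near-identical neighbour of Lyz2, was saturated at 69742, 69057 and 69305 units. Its further probes gave 402, 397 and 379 units and 359, 368 and 360 units. Signal cannot be assigned to Lyz1 or Lyz2 with certainty.

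Of 19057 genes with a probe, 8313 (43.6%) were above background on all 3 arrays and 9566 (50.2%) on none. A further 512 genes were above background on 2 arrays and 666 on 1. The 43.6% is the share to set beside each count of list members below. Between 34.4% and 35.8% of probes were above background on an array, and the median signals were 150, 158 and 153 units. Probes for olfactory, vomeronasal and trace-amine receptors, which macrophages are not known for, served as a check of the limit. Of these 1528 probes 2.42%, 2.03% and 3.40% were above it. Genes above background on all arrays were divided by signal. In 51 genes the brightest probe was saturated on all 3 arrays, 781 were strong (the other genes in the top 10% of genes above background, mean signals of 9355 to 62178 units), 5403 were of middle strength and 2078 were weak (the lowest 25%, 197.3 to 479.0 units). The 100 brightest genes held 17.9% to 18.5% of the summed signal above the most frequent signal, and the 1000 brightest held 61.7% to 61.9%, with saturated probes counted at their recorded signal.

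**Figure D1:**
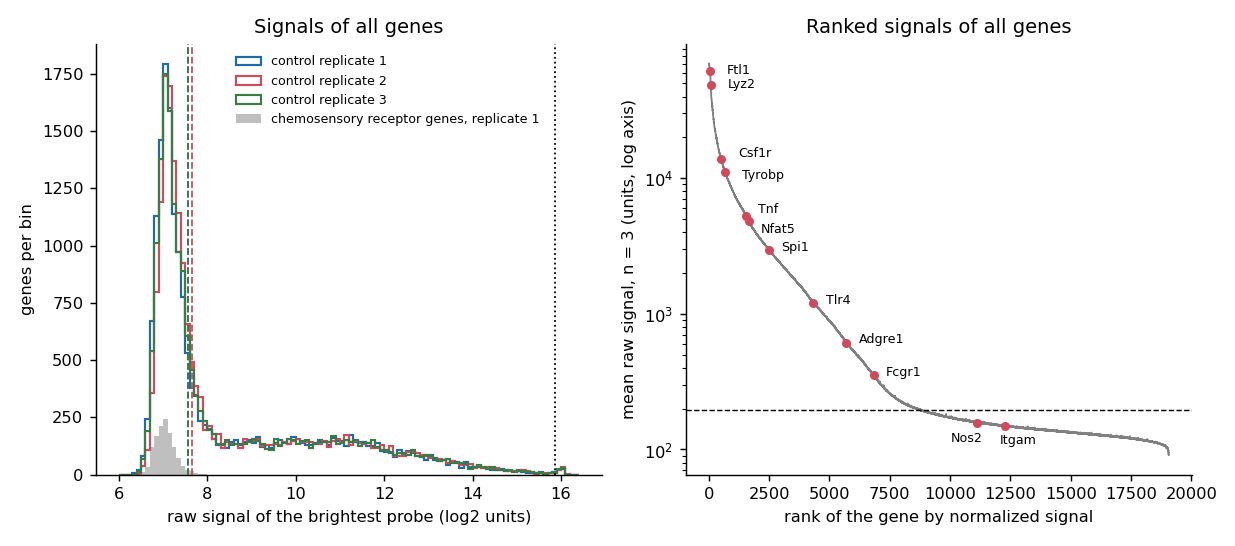
Left, the number of genes per bin of raw signal of the brightest probe (log2 units) on each of the 3 control arrays, with chemosensory receptor genes of replicate 1 in grey, the background limits dashed and the saturation limit dotted. Right, the mean raw signal (n = 3, log axis) of all 19057 genes by rank with 12 genes marked, in which Ftl1 and Lyz2 sit at the bright end and Nos2 and Itgam below the mean background limit (dashed).

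The border genes show how fine the divisions are. Actb lay just inside the saturated class with 60389, 63265 and 61537 units. Ldha, just outside it, passed that limit on 2 arrays with 59859, 64330 and 62346 units. Eif3i passed it on none, with a highest signal of 59232 units. At the background limit, Trarg1 was counted as above with 194, 202 and 197 units, while Esrrb was not with 172, 188 and 190 units.

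Genes of protein synthesis were prominent among the brightest. Of 56 measured genes of cytosolic ribosomal proteins, 51 (91.1%) were above background on all arrays and 28 were saturated. Their median position was above 99.7% of genes, where the median of all genes is 50 by construction. Rps12 gave 69384, 70298 and 70205 units, Rpl35 gave 70006, 70177 and 68828 units, and Rpl41 gave 69439, 68723 and 69171 units. These 3 probes were all saturated and cannot be ranked. Rpl6, Rpl17, Rps20 and Rps23 were not above background on any array, although all are subunits of the same ribosome. Rps20, for example, gave 109, 108 and 131 units on its only probe. Many ribosomal protein genes have processed copies in the genome, to which their probes may also bind. Among 30 translation factors 26 were above background, with the elongation factor genes Eef1a1 and Eef1g saturated. Eif3e and Eif3m, subunits of initiation factor 3, were not above background, while Eif3i of the same complex gave 49364, 56639 and 59232 units. Of 76 genes of mitochondrial ribosomal proteins 73 were above background, none of them saturated.

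Promoters of the ribosomal protein genes were searched for the core that ETS factors bind, CCGGAA on either strand, in the 250 bases before the start site given by RefSeq (GRCm38.p6). It was found in 16 of the 36 genes above background that had 1 promoter window (44.4%), and in 1 of 3 other members. In the 22862 promoters of genes with 1 window, on the array or not, the share was 12.2%. It was higher in bright genes as a whole, at 28.1% of strong and 35.3% of the 34 saturated genes with 1 window. The saturated class includes ribosomal protein genes. The last 150 bases before the start are shown for the brightest members that hold it there, with the core in capitals. The Rpl35 stretch lies at chr2:39005132-39005281 and the Rpl41 stretch at chr10:128549169-128549318, both on the minus strand.
Rpl35: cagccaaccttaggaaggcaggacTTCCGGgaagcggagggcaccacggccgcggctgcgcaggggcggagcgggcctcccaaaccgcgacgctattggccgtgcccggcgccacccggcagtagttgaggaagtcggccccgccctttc
Rpl41: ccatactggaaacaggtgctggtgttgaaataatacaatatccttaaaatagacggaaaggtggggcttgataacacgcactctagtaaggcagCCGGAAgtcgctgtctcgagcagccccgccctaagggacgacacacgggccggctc
The core began 126 bases before the start in Rpl35 and 56 bases before it in Rpl41. The match of these letters is a description of the window and does not show that a factor binds there.

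Nuclear genes of mitochondrial energy metabolism were nearly all detected. Of 64 nuclear genes of oxidative phosphorylation 61 (95.3%) were above background, and 43 were strong or saturated. Atp5b, the beta subunit of the mitochondrial ATP synthase, gave 66433, 68160 and 65930 units. Cox4i1, a subunit of cytochrome c oxidase, gave 38535, 48031 and 39140 units. The exceptions were Sdha, the catalytic subunit of succinate dehydrogenase, Ndufs1 of complex I and Uqcrfs1, the iron-sulphur protein of complex III, which were not above background. Sdha gave 138, 142 and 126 units on 1 probe, whereas Sdhb of the same enzyme gave 8258, 9621 and 9351 units. The TCA cycle stood at 21 of 23 genes above background, led by Idh3g with 20940, 23423 and 21900 units.

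Of 8 genes encoded by mitochondrial DNA with a probe, 6 were above background. CYTB, cytochrome b, was saturated at 61947, 65199 and 68759 units, and ND1 of complex I gave 32678, 36771 and 44498 units. ND5 stood much dimmer at 444, 464 and 538 units. ND6, the gene on the light strand, gave 124, 155 and 125 units and was not above background.

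Glycolysis was above background in 20 of 29 genes (69.0%), and those that were not included forms typical of other tissues. Pkm, pyruvate kinase of the muscle type, was saturated at 69629, 68333 and 67853 units, although its second probe gave 125, 124 and 117 units. Lactate dehydrogenase A (Ldha) gave 59859, 64330 and 62346 units. Slc2a1, the glucose carrier GLUT1, gave 9573, 9192 and 11019 units. The liver and red cell pyruvate kinase Pklr, the testis forms Ldhc, Pgk2 and Gapdhs, the muscle mutase Pgam2 and the carriers Slc2a2 and Slc2a4 were not above background on any array. Antioxidant genes were above background in 23 of 26 cases. Gpx1, glutathione peroxidase, was saturated at 63202, 66347 and 64514 units, while Nqo1, a quinone reductase, gave 169, 147 and 173 units and was not above background.

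Protein turnover and folding genes formed the next group. The proteasome had 30 of 36 genes above background, and 18 of them were strong. Psmb4, a subunit of its core, gave 45911, 57837 and 45481 units. Psma1, Psma3 and Psma6 of the same core were not above background, at 97 to 154 units. Among 32 chaperones 24 were above background. Ppia, cyclophilin A, and Hspa8, the constitutive HSP70, were saturated on all arrays. The heat-inducible forms Hspa1a and Hspa1b were not above background, with 161, 162 and 154 units for Hspa1a.

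The cytoskeleton and the cell cycle were prominent as well. Of 32 actin cytoskeleton genes 25 were above background. Actb, beta-actin, was just saturated at 60389, 63265 and 61537 units, and Coro1a, an actin-binding protein of leukocytes, gave 31731, 39016 and 37189 units with its 3 other probes also above background. Muscle actins Acta1 and Actg2 were not above background. Of 38 cell cycle and replication genes 30 (78.9%) were above background, 9 of them strong. Mcm5, a subunit of the replicative helicase, gave 22914, 24181 and 21484 units. Cyclin D1 (Ccnd1), which CSF-1 signalling induces, gave 21290, 22612 and 20030 units. Cdc20, an activator of the anaphase-promoting complex, gave 10410, 12858 and 12983 units. For each of these genes the highest and lowest array differed by less than 1.5-fold. Cyclin genes Ccna2 and Ccnb2 and the kinase gene Bub1 were not above background.

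Genes tied to the origin of the line and other proto-oncogenes were above background in 13 of 20 cases (65.0%), against 43.6% of all genes. Abl1, the Abelson kinase gene, was weak with 249, 218 and 221 units on its brightest probe, and its other probes were above background on no array. Nras gave 15335, 15082 and 13813 units. Mcl1, a survival gene, gave 11632, 10682 and 12957 units, and its relatives Bcl2a1b and Bcl2a1d, near-identical copies that their probes may not separate, gave 9658 to 10825 units. Myc was not above background on either probe, with 112, 144 and 138 units on the brighter one. Cdkn2a, the locus of p16 and ARF, was above background on 2 arrays with 179, 263 and 217 units. Cdkn2b next to it was on none.

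Transcription factors of the macrophage lineage were above background in 11 of 17 cases (64.7%), most of them with middle or weak signals. Their median position was above 59.8% of genes. Cebpb, a factor of myeloid and inflammatory genes, gave 25770, 29954 and 23072 units. Spi1, which encodes PU.1, gave 2803, 3170 and 2843 units. Irf8, its partner in the monocyte lineage, gave 1753, 2179 and 1989 units. The PU.1 probe was thus of middle strength, at rank 2503 of all genes. Egr1, an early response factor, gave 11453, 7542 and 8642 units, and its highest value was on replicate 1. Cebpa, Maf, Bach1, Tfec and Batf3 were not above background on any array. Cebpa, a factor of myeloid progenitors, gave 178, 189 and 174 units and Maf gave 110, 137 and 123 units.

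Genes of macrophage identity were above background in 22 of 30 cases (73.3%), and 11 were strong or saturated. Laptm5, a lysosomal protein of blood cells, was saturated at 65184, 66830 and 64060 units. Lgals3, which encodes galectin-3, gave 36649, 39627 and 36612 units, and Gpnmb, a glycoprotein of lysosome-rich cells, gave 34795, 36045 and 36160 units. The arrays differed little for these genes. Cd14, the co-receptor for lipopolysaccharide, gave 26689, 24723 and 25192 units. Trem2, a lipid receptor that signals through Tyrobp, gave 13126, 15650 and 14461 units. Adgre1, which encodes the F4/80 antigen, gave only 613, 652 and 568 units on its brightest probe.

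Several genes that are classic for macrophages were not above background. Itgam, which encodes CD11b, gave 166, 139 and 141 units on its only probe. Cybb, the large subunit of the phagocyte oxidase, gave 132, 141 and 148 units, whereas the small subunit Cyba gave 24750, 27245 and 23390 units. Mertk, a receptor for apoptotic cells, gave 137, 122 and 132 units. Fcer1g, the common gamma chain of Fc receptors, gave 117, 123 and 130 units. Cd48 and Cd84 completed this set, and the brightest probe of Ptprc, which encodes CD45, passed the limit on replicate 3 alone with 176, 192 and 221 units. Its second probe passed on replicate 1 alone, with 210, 175 and 177 units. The defining genes of the lineage were therefore detected in part, and the cause of the low signals was not tested.

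The core GAGGAA, found in sites of PU.1, was searched in the promoters of the identity genes on both strands. It shares 4 letters with the ETS core above. Of the 12 identity genes above background that had 1 promoter window 7 held it (58.3%), as did 1 of 6 other members. The share was 23.04% in the 22862 promoters of genes with 1 window. The last 150 bases before the start are shown for the brightest holders, with the core in capitals, at chr4:130913166-130913315 for Laptm5 and chr17:48346251-48346400 for Trem2, both on the plus strand of GRCm38.p6.
Laptm5: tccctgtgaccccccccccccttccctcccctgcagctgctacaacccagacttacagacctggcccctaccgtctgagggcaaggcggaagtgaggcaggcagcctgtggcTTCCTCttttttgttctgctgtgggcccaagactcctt
Trem2: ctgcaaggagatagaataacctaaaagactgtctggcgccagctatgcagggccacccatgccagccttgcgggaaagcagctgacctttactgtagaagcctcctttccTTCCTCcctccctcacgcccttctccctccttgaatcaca
In both promoters the letters lay on the opposite strand, beginning 38 bases before the start used for Laptm5 and 40 bases before that of Trem2. The Laptm5 gene is annotated at chr4:130912890-130936148, so its window lies inside the annotated gene and not before its first base. The other holders were Cd53, Csf2ra, Ctss, Fcgr1 and Aif1.

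Genes of Fc and ITAM receptors and their signalling partners were above background in 18 of 22 cases (81.8%). Ptpn6, the inhibitory phosphatase SHP-1, gave 15155, 16063 and 14698 units. Btk, a kinase downstream of these receptors, gave 8604, 8234 and 9286 units. Plcg2, a phospholipase of the same pathway, gave 7168, 7207 and 7364 units. All 3 were alike on the 3 arrays to within 1.5-fold. Clec4e, which encodes the lectin Mincle, gave 3367, 3278 and 3587 units. Syk, the kinase that binds ITAM motifs, gave 177, 157 and 137 units on 1 probe and was not above background. Clec7a, which encodes Dectin-1, passed the limit on replicate 2 alone on its brighter probe, with 185, 213 and 190 units.

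Scavenger and phagocytic receptors stood lower, with 8 of 23 genes above background (34.8%) and none strong. Msr1, the scavenger receptor A, gave 5175, 6152 and 6284 units, and Stab1, stabilin-1, gave 3992, 4679 and 4785 units. Axl, a receptor for apoptotic cells, gave 1788, 1791 and 1880 units. Marco passed the limit on replicate 1 only, with 192, 193 and 178 units. Cd36, Itgax, C5ar1, C3ar1, Cd5l, Cd209a and Clec10a were not above background on any array, with signals of 100 to 161 units.

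Genes of tissue-resident macrophage programmes were mostly not detected, with 6 of 22 above background (27.3%). The exception in strength was Cx3cr1, the fractalkine receptor, with 13291, 17850 and 11831 units on its only probe. Hmox1, haem oxygenase 1, gave 2306, 2581 and 2626 units. Sall1, a factor of microglia, gave 433, 494 and 511 units and Tmem119, another microglial gene, gave 244, 268 and 276 units, both low but above the limit on every array. Gata6 of peritoneal macrophages, Clec4f of Kupffer cells, Car4 and Chil3 of alveolar macrophages, Lyve1, Folr2, Mrc1 and Cd163 were not above background.

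Toll-like receptors and their adaptors were above background in 19 of 26 cases (73.1%), but the receptors divided. Tlr2, the receptor for bacterial lipoproteins, gave 15835, 15539 and 13554 units. Tlr7, a receptor for single-stranded RNA, gave 3675, 3462 and 3849 units, and Tlr4, the receptor for lipopolysaccharide, gave 1131, 1221 and 1253 units. For each of them the 3 arrays lay close together. Tlr13, which recognises bacterial ribosomal RNA, gave 746, 747 and 749 units. Tlr6, a partner of Tlr2, gave 546, 627 and 583 units. Tlr1, Tlr3, Tlr5, Tlr8, Tlr9 and Tlr11 were not above background on any array, and Tlr12 was on 1. Tlr9, a receptor for CpG DNA, gave 134, 141 and 162 units. The adaptor Myd88 gave 10493, 12807 and 10822 units, and Unc93b1, which escorts the receptors of endosomes, gave 6316, 7669 and 7200 units.

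Cytosolic sensors and inflammasome genes were above background in 13 of 22 cases (59.1%), against 43.6% of all genes. Casp1, the protease that matures IL-1beta, gave 8727, 8511 and 8433 units. Cgas, the DNA sensor, gave 5660, 6305 and 5938 units, and Gsdmd, the pore former gasdermin D, gave 3999, 3901 and 4251 units. Aim2 was lower at 994, 928 and 875 units. Pycard, the adaptor ASC, which links sensors to Casp1 and is known to be missing in this line, gave 177, 166 and 196 units and passed the limit on replicate 3 only. Nlrp3 was not above background on either probe, with 140, 149 and 146 units on the brighter one. Nod1, Nod2, Ifih1, Mefv and Nlrp1a were likewise on no array.

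**Figure D2:**
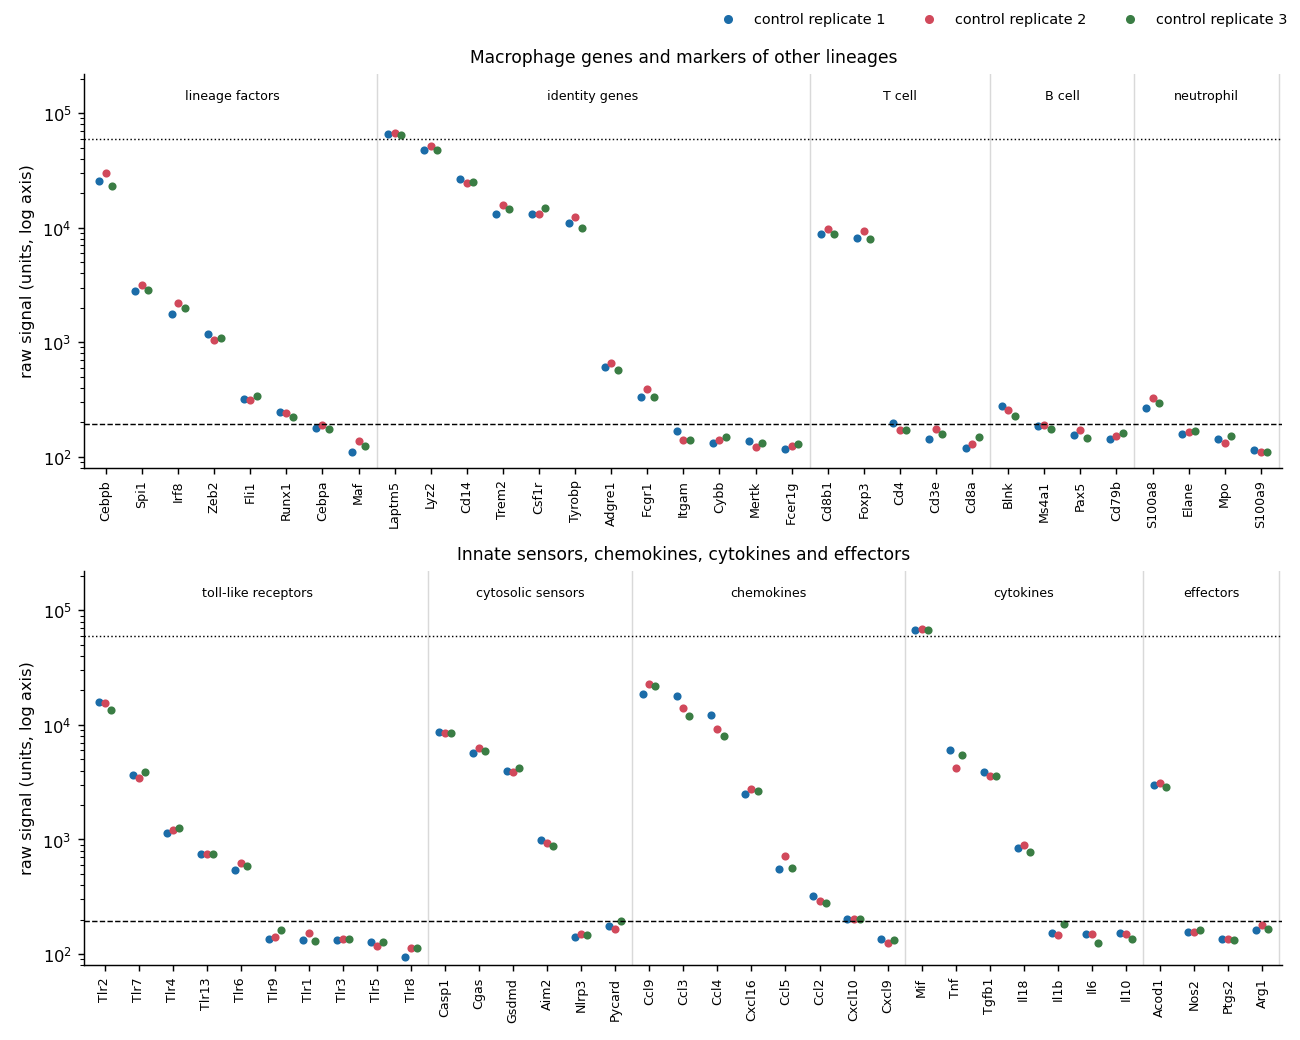
Raw signals (log axis) of named genes on the 3 control arrays, 1 point per array, grouped by role, with the mean background limit dashed and the saturation limit dotted. Within each group the points of a gene lie close together. Identity genes and cytokines span from saturation (Laptm5, Mif) to below the background limit (Itgam, Il1b). Tlr9, Nlrp3 and Nos2 also lie below that limit, in groups without a saturated gene.

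Cytokines and growth factors were above background in 17 of 38 cases (44.7%), near the 43.6% of all genes. Mif, macrophage migration inhibitory factor, was saturated at 68062, 69327 and 67636 units. Grn, which encodes progranulin, gave 18553, 19283 and 22004 units. Tnf gave 6089, 4246 and 5465 units, and its second probe gave 5348, 3763 and 4294 units. Both Tnf probes were thus lowest on replicate 2. Igf1 gave 4225, 4889 and 4376 units, Pdgfa gave 4078, 4509 and 4325 units, and Tgfb1 gave 3869, 3582 and 3604 units. The precursor gene Il18 gave 851, 899 and 775 units. Il1a, Il1b, Il6, Il10, Il12a, Ifnb1, Csf1 and Csf2 were not above background on any array. Il1b gave 154, 147 and 184 units, and Csf1, the ligand of Csf1r, gave 121, 145 and 148 units.

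Chemokines were above background in 9 of 34 cases (26.5%), and 3 of these were strong. Ccl9 gave 18717, 22791 and 21776 units. Ccl3, a MIP-1 chemokine, gave 18043, 14068 and 12070 units. Ccl4, its relative, gave 12326, 9201 and 7953 units. Replicate 1 was highest for both. Cxcl16 gave 2495, 2781 and 2641 units and Ccl5 gave 551, 715 and 569 units. Ccl2, the chemokine of monocytes, was weak at 322, 291 and 279 units, and Cxcl10 passed the limit on 2 arrays with 204, 201 and 202 units. Ccl17, Ccl22, Ccl20, Ccl12 and Cxcl9 were among those on no array.

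Receptors for these ligands were above background in 21 of 41 cases (51.2%), against 43.6% of all genes. After Cx3cr1 and Csf1r, the brightest were the TGF-beta receptors Tgfbr2, with 7744, 7139 and 7871 units, and Tgfbr1, with 5391, 5459 and 4727 units. Csf2ra, the alpha chain of the GM-CSF receptor, gave 2196, 2473 and 2325 units, whereas the shared beta chain Csf2rb gave 216, 201 and 201 units and passed on 2 arrays. Ccr1, Ccr2, Ccr3, Ccr4, Ccr7, Ccr8, Ccr9 and Ccr10 were not above background. Ccr2, the receptor for Ccl2, gave 113, 130 and 109 units.

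Of the effectors that lipopolysaccharide is known to induce, 13 of 27 were above background (48.1%), near the 43.6% of all genes, and none was strong. Acod1, which makes itaconate, gave 3007, 3108 and 2872 units, and its second probe was also above background. Nfkbia, an inhibitor of NF-kB, gave 2759, 3336 and 3165 units, and Socs3 gave 2086, 2021 and 2339 units. Nos2, the inducible nitric oxide synthase, gave 157, 156 and 161 units and Ptgs2, the inducible cyclooxygenase, gave 134, 135 and 132 units. Cd86, Lcn2, Gbp5 and Ifit1 were on no array either, and Cd80 on 1. Genes of alternative activation were above background in 5 of 17 cases (29.4%), led by Stat6 at 902, 978 and 1047 units. Arg1, arginase 1, was not above background at 162, 180 and 165 units.

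Interferon-stimulated genes were above background in 26 of 43 cases (60.5%), and 11 of them were weak. Ifitm3, a membrane protein that restricts viral entry, gave 63248, 62616 and 59252 units, saturated on 2 arrays. Irgm1, an immunity-related GTPase, gave 43723, 54149 and 41375 units, and Ifitm2 gave 20239, 25287 and 21746 units. Replicate 2 was highest for both. Bst2, which encodes tetherin, gave 1681, 2499 and 1945 units. Mx1, Ifit1, Isg20, Gbp2, Gbp3, Iigp1, Ifi205 and Ifih1 were not above background, and Rsad2, Mx2, Oasl2, Parp9 and Ifi204 passed on 1 or 2 arrays. The list therefore spanned nearly the whole range of signals, from a position above 1.96% to one above 99.7% of genes.

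The core of the interferon response element, GAAA and GAAA with any 2 bases between them, was searched in these promoters on both strands. It was held by 10 of 19 genes above background with 1 window (52.6%) and by 5 of 8 other members (62.5%). In the 22862 promoters of genes with 1 window 3.11% held it. Within the list the share was no lower in the members that were not above background on all arrays. The last 150 bases before the start are shown for the brightest holders, with the matches in capitals, at chr11:48871421-48871570 for Irgm1 and chr7:140955962-140956111 for Ifitm2, both on the minus strand of GRCm38.p6.
Irgm1: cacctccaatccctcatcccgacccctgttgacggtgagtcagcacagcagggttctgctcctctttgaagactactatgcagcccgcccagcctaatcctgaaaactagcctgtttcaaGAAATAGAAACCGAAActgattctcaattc
Ifitm2: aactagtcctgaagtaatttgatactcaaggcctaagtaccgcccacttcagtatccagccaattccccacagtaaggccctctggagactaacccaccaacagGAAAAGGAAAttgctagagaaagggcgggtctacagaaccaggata
Irgm1 held 2 overlapping matches, which begin 30 and 24 bases before the start. The single match of Ifitm2 begins 46 bases before it.

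Antigen presentation differed between its classes. Of 22 genes of MHC class I and antigen processing 18 were above background (81.8%). B2m, the light chain, gave 33087, 36129 and 36312 units, and the heavy chain H2-D1 gave 14529, 16990 and 15160 units. Class I heavy chains are close relatives of each other, so their probes may share transcripts. Of 14 genes of MHC class II 3 were above background (21.4%). Cd74, the invariant chain, gave 5116, 6942 and 5346 units with both other probes also above background. The chains H2-Aa, H2-Ab1, H2-Eb1 and H2-Ea were not above background, at 114 to 164 units, and neither was Ciita, the master regulator of the class, at 133, 118 and 89 units.

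Complement genes were above background in 4 of 19 cases (21.1%). Cfp, which encodes properdin, was the strong one, with 20692, 20238 and 23875 units. The C1q genes C1qa, C1qb and C1qc, typical of tissue macrophages, were not above background, at 97 to 183 units. Eicosanoid genes were above background in 9 of 21 cases (42.9%), near the 43.6% of all genes. Alox5ap, the partner of 5-lipoxygenase, gave 18898, 19414 and 19728 units and Alox5 itself gave 1017, 1158 and 1140 units. Pla2g4a, a cytosolic phospholipase that releases arachidonic acid, was not above background at 109, 117 and 101 units, and Lta4h was on no array either.

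The lysosome was among the most fully detected compartments, with 36 of 42 genes above background (85.7%) and 16 of them strong. Ctsb, cathepsin B, gave 50193, 61993 and 59531 units on 1 of its 2 probes, and the other was on no array above background. Cd63, a membrane protein, gave 27276, 32454 and 33628 units. Lipa, the acid lipase, gave 28763, 28665 and 30230 units. Gusb, beta-glucuronidase, gave 24854, 24486 and 27700 units, and all 4 of its probes were above background. Gla, alpha-galactosidase, Scpep1 and Atp6v0d2, a pump subunit of osteoclasts, were not above background. Tfeb, the factor that drives lysosomal genes, passed the limit on every array except replicate 2, with 234, 200 and 215 units.

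The E box CACGTG, which reads the same on both strands and is found in sites of TFEB and its relatives, was searched in the promoters of lysosomal genes. It was held by 7 of 26 genes above background with 1 window (26.9%) and by 1 of 3 other members. The share was 12.3% in all strong genes with 1 window. In the 22862 promoters of genes with 1 window it was 5.92%. The last 150 bases before the start are shown for the brightest holders, with the box in capitals, at chr8:13159011-13159160 on the plus strand for Lamp1 and chr16:44139260-44139409 on the minus strand for Atp6v1a.
Lamp1: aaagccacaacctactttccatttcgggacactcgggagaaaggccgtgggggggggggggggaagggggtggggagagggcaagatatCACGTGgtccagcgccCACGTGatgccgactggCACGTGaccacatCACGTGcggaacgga
Atp6v1a: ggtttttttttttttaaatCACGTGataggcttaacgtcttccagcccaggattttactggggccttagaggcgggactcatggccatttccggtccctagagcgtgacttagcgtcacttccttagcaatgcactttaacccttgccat
Lamp1, a main protein of the lysosomal membrane, held 4 copies, beginning 61, 45, 28 and 15 bases before the start. Atp6v1a, a subunit of the proton pump, held 1 copy, beginning 131 bases before it.

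Iron and haem genes were above background in 18 of 26 cases (69.2%). Fth1, the ferritin heavy chain, was saturated at 68329, 70132 and 67514 units, as was Ftl1. Tfrc, the transferrin receptor, gave 17857, 16693 and 17695 units, and Slc11a1, the NRAMP1 metal carrier of the phagosome, gave 10919, 10827 and 11433 units with its 3 other probes also above background. Hamp, which encodes hepcidin, and Alas2 of red cells were not above background. Neither was Cd163, the haemoglobin scavenger receptor.

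RAW264.7 cells are used as precursors of osteoclasts. In these cells, labelled as untreated, 15 of 22 osteoclast genes were above background (68.2%), against 43.6% of all genes. Tcirg1, a pump subunit of the ruffled border, gave 8673, 10132 and 10124 units. Nfatc1, the master factor of osteoclasts, gave 3650, 4051 and 3668 units and Ctsk, cathepsin K, gave 2993, 3497 and 3120 units. Tnfrsf11a, which encodes the receptor RANK, gave 1179, 1170 and 1004 units. Calcr and Atp6v0d2 were not above background, and Oscar, Ocstamp, Src, Mmp9 and Itgb3 passed on 1 or 2 arrays.

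Nfat5, the factor targeted in the other samples of the series and known for the response to high salt, gave 5049, 4591 and 4857 units. Its second probe gave 752, 685 and 625 units, and both remaining probes were not above background. Of the NFAT and calcineurin list 9 of 14 genes were above background (64.3%), against 43.6% of all genes. Ppp3cb, a calcineurin catalytic subunit, gave 10560, 9570 and 11119 units, while Nfatc2 and Nfatc4 were on no array. Genes of osmoprotection were above background in 9 of 16 cases (56.2%), against 43.6% of all genes, in cells kept in standard medium. Slc6a6, the taurine carrier, gave 25087, 23471 and 22620 units, and Slc6a12, the betaine carrier, gave 15953, 14495 and 14950 units on its only probe. Slc5a3, the inositol carrier, gave 153, 158 and 160 units and was not above background.

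**Figure D3:**
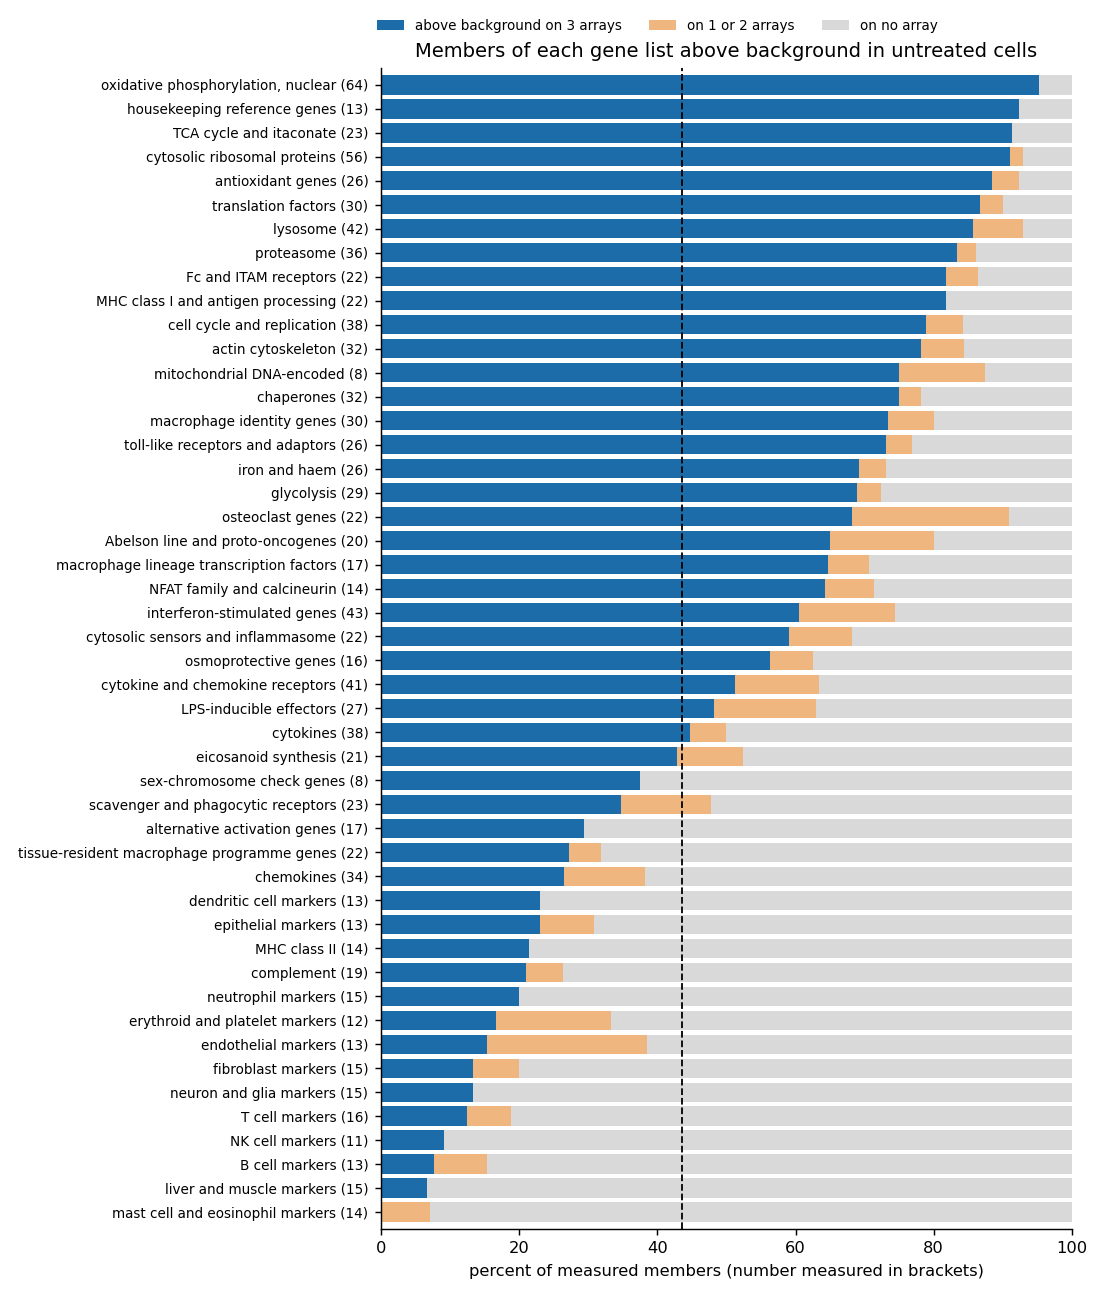
Percent of the measured members of 48 gene lists (number measured in brackets) that were above background on all 3 control arrays (blue), on 1 or 2 (orange) or on none (grey), with the 43.6% of all genes dashed. Nuclear oxidative phosphorylation genes reach 95.3%, and the lists of other lineages lie at the bottom, down to 0 of 14 mast cell and eosinophil markers.

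Markers of other cell types were mostly not detected. In bulk RNA, fewer cells of a type and less RNA per cell cannot be told apart. No mast cell or eosinophil marker of 14 was above background on all arrays, and Fcer1a passed on 2 with 196, 219 and 166 units. The counts were 1 of 15 for liver and muscle, 1 of 13 for B cells, 1 of 11 for NK cells, 2 of 15 for fibroblasts, 2 of 13 for endothelium, 2 of 12 for red cells and platelets, 3 of 13 for epithelium and 3 of 15 for neutrophils. Most of the exceptions were weak. Blnk, an adaptor of B cells that macrophages also use, gave 278, 256 and 227 units, S100a8 of neutrophils gave 264, 324 and 295 units, and Prf1, perforin, gave 344, 286 and 253 units. Defining markers such as Pax5, Cd79b, Elane, Mpo, Gata1, Col1a1, Epcam, Cdh5 and Alb stood below the limit on all arrays. Of 13 dendritic cell markers 3 were above background, and the brightest was Tcf4 with 5830, 5321 and 5287 units.

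A few markers of other lineages were bright. Among 16 T cell markers, Cd8b1 gave 8774, 9793 and 8735 units and Foxp3, the factor of regulatory T cells, gave 8178, 9327 and 7997 units. In both genes a single probe carried the signal. The 2 other Cd8b1 probes gave 130 to 184 units and the 3 other Foxp3 probes 121 to 189 units, none above the limit. Cd3d, Cd3e, Cd3g, Cd8a, Cd2, Cd5 and Cd28 were not above background on any array. Mbp, known from myelin and also as the Golli transcripts of blood cells, gave 4722, 4545 and 4319 units, and 2 of its 4 other probes were above background at 224 to 285 units. Genes of the Y chromosome were in part detected, in a line from a male mouse. Eif2s3y gave 2521, 2384 and 2533 units, Kdm5d gave 406, 382 and 472 units and Uty gave 298, 267 and 326 units, while Xist was not above background on any of its 4 probes.

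Gene families outside these lists were counted by symbol. Of 1078 olfactory receptor genes 14 were above background (1.30%), and 1 of 49 keratins was. Of 38 Hox genes 8 were above background (21.1%), and 7 of these were weak. Hoxb7 was the exception with 5592, 6514 and 6771 units on one probe and 3791, 4456 and 4019 units on the other. Among 70 Rab GTPases 46 were above background (65.7%), and 41 of 300 genes with a predicted Gm name (13.7%) were. Protein-coding genes were above background in 44.5% of cases and long noncoding RNA genes in 18.9% of 417. Among nuclear chromosomes the share ran from 33.5% on X and 15.8% of 19 genes on Y to 50.6% on chromosome 8. Olfactory receptor clusters lowered it on chromosomes 2 and 7, where it was 40.4% and 37.0% with them and 48.4% and 44.4% without the chemosensory receptors.

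Promoters were compared between the signal classes over the 12630 genes with 1 RefSeq window, of which the 250 bases before the start were read. The ratio of observed to expected CpG exceeded 0.6 in 82.4% of the 34 saturated, 78.8% of strong, 77.6% of middle and 61.8% of weak genes. It did so in 27.9% of genes not above background, or 32.9% without the chemosensory receptors. The TATA box TATAAA ran the other way in part, in 5.57% of middle and 17.2% of genes not above background, but in 11.8% (4 genes) of the saturated class. Without the chemosensory receptors, 13.3% of genes not above background held it. The GC box GGGCGG was found in 62.1% of strong genes and 31.6% of those not above background, and the ETS core in 28.1% and 8.66%. Without the receptors, the genes not above background stood at 37.4% for the GC box and 10.2% for the ETS core. The CCAAT box varied little, from 33.5% to 41.5%. Windows rich in G and C hold CCGGAA and GGGCGG more often by composition alone. The median GC content was 59.6% in strong genes and 51.6% in genes not above background, or 54.0% without the chemosensory receptors. How much of the differences between classes goes with base composition was not tested. Among the 22862 promoters of genes with 1 window, on the array or not, the shares were 33.9% for CpG and 13.6% for TATAAA. They were 32.4% for GGGCGG, 12.2% for CCGGAA and 34.7% for CCAAT.

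**Figure D4:**
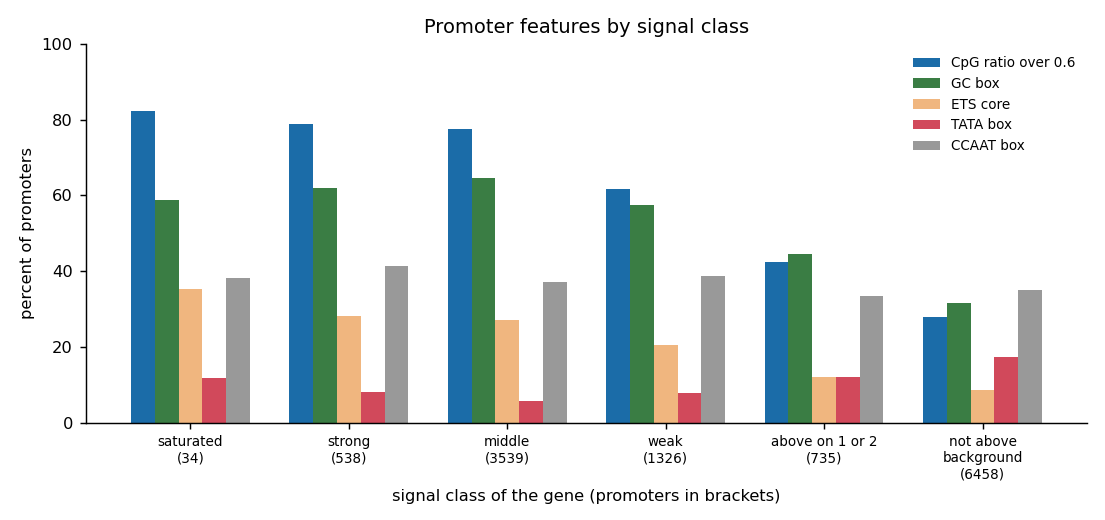
Percent of promoters (250 bases before the start, both strands) in each signal class that have a CpG ratio over 0.6 or hold the GC box, ETS core, TATA box or CCAAT box, with the number of promoters in brackets. The CpG share declines from 82.4% in saturated genes to 27.9% in genes not above background, while the CCAAT share stays between 33.5% and 41.5%.

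Probes of the same gene often disagreed, which bears on every statement of a low signal. Of 9172 genes with 2 or more probes, 5125 were above background on the brightest. In 34.4% of these every other probe was also above background on all arrays, and in 32.3% no other probe was on any array. The median gap between the brightest and the next probe was 1.43 on the log2 scale. Genes with 1 probe were above background in 32.3% of cases, those with 2 in 49.0%, with 3 in 61.1% and with 4 in 69.7%. The 26 saturated genes with several probes included 8 in which another probe was not above background, among them Ftl1, Pkm, Npm1, Rplp2 and Tubb5. Npm1, nucleophosmin, gave 64321, 65325 and 68179 units on one probe and 138, 149 and 136 units on the other.

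The 3 arrays were close to each other. Across all probes the Pearson correlation of normalized log2 signals was 0.9937 to 0.9938 for the 3 pairs, and the Spearman correlation was 0.9208 to 0.9224. Across genes above background the Pearson correlation was 0.9966 for each pair and the Spearman correlation 0.9958 to 0.9959. These values are a description over genes measured on shared platforms. Between 94 and 95 of the 100 brightest genes were common to a pair of arrays. The median SD of a gene above background was 0.093 (log2, n = 3), and in 99.5% of these genes the highest and lowest array differed by less than 1.5-fold. In 48 genes the SD exceeded 0.3, and in 2 the range exceeded 2-fold. The largest SD, 0.59, was that of the histone H4 gene H4f16, with 380, 317 and 197 units.

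Of the 12 genes of largest SD 9 were early response or histone genes. Both lists below were drawn up after these values were seen, so their counts are a description of these arrays. Of 35 early response genes above background and not saturated, 19 were highest on replicate 1, where 2642 of all 8249 such genes were. Egr3 gave 507, 289 and 294 units, Cxcl2 gave 440, 272 and 240 units, and Dusp1, a phosphatase of MAP kinases, gave 4297, 2812 and 3143 units. Their median difference between replicate 1 and the mean of the other arrays was 0.22 on the log2 scale, against -0.0038 for all genes. Of 38 genes in the replication-dependent histone clusters, 30 were lowest on replicate 3, where 2750 of all 8249 genes were, with a median difference of -0.25 against -0.0024 for all genes. H4c8 gave 524, 587 and 371 units and H4c12 gave 474, 493 and 324 units. Histone genes of 1 type are near-identical in sequence, so their probes are not separate measurements. By type the median difference was -0.16 for H2a, -0.41 for H2b, and -0.29 for both H3 and H4. The 5 unsaturated genes of mitochondrial DNA were all highest on replicate 3, where 2705 of all 8249 genes were, with a median difference of 0.35. These genes are cut from long shared transcripts. The cause of these differences between arrays was not tested.

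**Figure D5:**
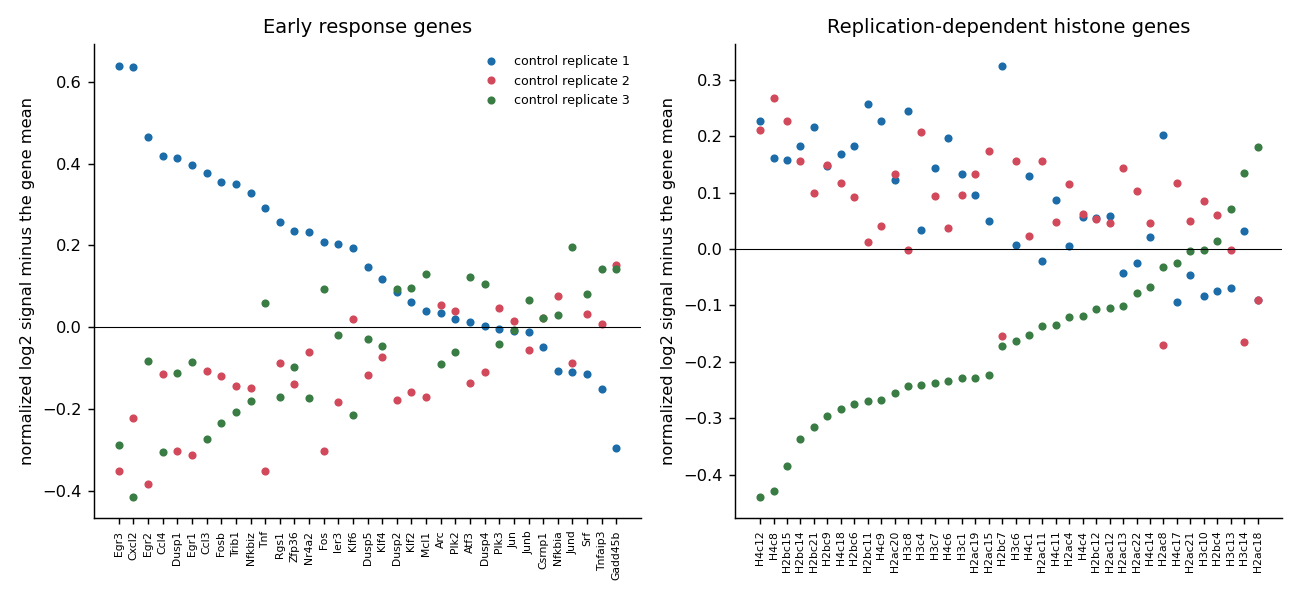
Deviation of each control array from the gene mean (normalized log2 signal) for early response genes (left) and replication-dependent histone genes (right), 1 column of 3 points per gene. Replicate 1 lies highest in 19 of 35 early response genes and replicate 3 lowest in 30 of 38 histone genes.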

How the data were processed

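RNA of untreated RAW264.7 cells was measured on 3 of the 9 arrays of the series. The deposited raw table gives each probe's intensity in whole numbers. Judging by its values, nothing was subtracted and the arrays were not scaled. Detection p-values and control probes are not among its columns and rows, and 2042 blank rows were dropped. The authors also deposited log2 values, which served as an alternative. How these were normalized is not stated, and per the submitters' processing notes R 2.9.1 was used.

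Intensities of the 3 control arrays were corrected with normexp (offset 50), put on the log2 scale and quantile normalized with limma 3.58.1 in R 4.3.3. Of 45281 probes 34885 had 1 gene symbol in the platform annotation, 18 had several and 10378 none, and 0 symbols changed through the RefSeq table. A gene was ranked by its brightest probe. The number of arrays limits the precision. One group was described, so no test was made. The background and saturation limits, the promoter motifs, the 49 gene lists and the genes themselves were chosen with earlier results of these data known. Named genes are, by rule, the label markers and Nfat5, the 30 brightest genes, in each list up to 8 brightest members, up to 8 on no array and all on 1 or 2, the 12 of largest SD, the border genes and saturated genes with a dim probe. A few others (such as Adgre1, Tlr4, Ccl2, Ptgs2 and the Hox genes) and the members printed from each list were picked after their values were seen. Promoter windows of RefSeq (GRCm38.p6) were matched by gene ID for 15207 of 19057 genes, and 12630 with 1 window were used.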

Additional observations from a re-analysis of the deposited data

Results flagged for a closer look

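Of the 10378 probes without a gene symbol, which enter no gene list, 2006 were above background on all 3 control arrays, a share of 19.3%, and 63 of them were saturated. Their signals lie outside the gene-level values given here. The share of these probes that stand for annotated transcripts was not determined.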

How the results depend on the processing

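The number of genes above background on all arrays was 8313, and 7292 to 9266 under limits at 2 SD and 5 SD, a limit from the receptor probes, normexp values or the authors' processed values. It was 4952 when every probe of a gene had to pass, 14572 when probes were counted as themselves, and 3188 among genes with 1 probe, an alternative chosen after seeing the data. Without 1 replicate it was 8429 to 8515. Saturated genes fell from 51 to 26 at 65000 units (66 at 50000, 51 to 55 without 1 replicate). Of the 100 brightest genes 61 were shared when a gene was the mean of its probes and 64 with its next-brightest probe, 98 to 99 without 1 replicate, and 100 under the other scalings and the authors' values. The median position of the 4 label markers, above 98.5% of genes (98.4 to 98.5 without 1 replicate), was 95.8 with the mean over probes and 96.5 among genes above background only. The list counts that moved by over 1.5 times were those of B cell markers (3 at 2 SD, 2 with the receptor limit, 0 at 5 SD and with the authors' values, 1 to 2 without 1 replicate), NK cell markers (0 with the authors' values), alternative activation genes (3), epithelial markers (0) and fibroblast markers (1) at 5 SD and with the authors' values alike, red cell and platelet markers (4 at 2 SD and with the receptor limit, 1 at 5 SD and with the authors' values), neuron and glia markers (4 at 2 SD, 1 at 5 SD and with the authors' values) and mast cell and eosinophil markers (0 to 1 without 1 replicate). The median SD was 0.073 to 0.12 under all settings tried. No paired analysis was possible because only 1 group was described. Dim signals lie within a narrow range above the array background, so genes within it have no firm order.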
